A study of Mus musculus with 6 samples.

Results

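Wt1, Tcf21, Foxd1, Foxc1, Foxc2, Tbx5, Tbx15, Tbx18, Prrx1 and Meox2 are 10 transcription factor genes that mark mesothelium, mesenchyme and their embryonic origin. They were taken by name, with every non-control probe that carries 1 of these names, and make up 10 of the 22739 named genes and 11 of the 55681 probes on the array. Total RNA of mouse embryonic fibroblasts (MEFs), cells grown out of the connective tissue of embryos, was hybridised to 6 single-colour Agilent arrays, 1 per group. The cells were wild type, Clk/Clk (carrying a mutant Clock gene of the circadian clock) or Per2m/m (carrying a mutant Per2 gene), all on the ICR strain. Cells of each genotype were either mock transfected or transfected with a vector for H-Ras, an oncogenic signalling protein, and SV40T, a viral antigen that inactivates p53 and the retinoblastoma proteins. For transfected Per2m/m cells the label of the source speaks of H-Ras without SV40, while their other labels name both. The labels do not say how many embryos or cultures each sample came from, and all cells were kept in serum-containing medium. The 6 groups allow 3 comparisons of transfected with mock cells, 1 in each genotype, and comparisons of each mutant with wild type under either transfection.

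These proteins bind DNA and set the identity of mesenchymal cells, the loosely arranged cells that give rise to fibroblasts, smooth muscle, bone and fat. Wt1, Tcf21 and Tbx18 mark the mesothelium and epicardium, sheets of cells that release mesenchymal cells by an epithelial-to-mesenchymal transition. Prrx1, Meox2, Tbx5, Tbx15 and the forkhead genes Foxc1, Foxc2 and Foxd1 are used in limb, somite, body wall, vessel and kidney stroma, so fibroblasts keep a record of the place they came from in such genes.

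The probes read 60 bases each, and the first 30 bases of 6 of them are shown because the results turn on them: Wt1, Tbx5, Meox2 and Foxd1 had the widest ranges of level over the 6 arrays, and Prrx1 is read by 2 probes on different transcripts. Sequences are written 5′ to 3′ as deposited.
Wt1 probe, chr2:105013656-105013715 on the plus strand: ggtattagctgcatcactgtgtggatgtca
Tbx5 probe, chr5:120334087-120334146 on the plus strand: aaatacctacctccgtcatgtgagatgtct
Meox2 probe, chr12:37905809-37905868 on the plus strand: agacattaggatcataggcaaatcagttac
Foxd1 probe, chr13:99126452-99126511 on the plus strand: gaaataagtcgaaatttaccatttcctatt
Prrx1 probe A_55_P2131920, chr1:165175375-165175434 on the minus strand: cacgtgggaggttaaattaaaccagaagta
Prrx1 probe A_55_P2131915, chr1:165185408-165185467 on the minus strand: tcaagctagtacctcacatgagatattcat
Coordinates are those of the deposited probe table, on mm9. The remaining probes lie at chr10:22537563-22537622 (Tcf21), chr13:31902423-31902482 (Foxc1), chr8:123642693-123642752 (Foxc2), chr3:99157901-99157960 (Tbx15) and chr9:87599514-87599573 (Tbx18). Per the deposited table they start between base 685 (Tcf21) and base 4779 (Prrx1, A_55_P2131920) of their transcripts, and whether a probe lies in coding sequence or in a UTR was not analysed here.

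Clock proteins bind the E-box CACGTG, so the sequence upstream of the start was read where RefSeq (GRCm38.p6) gave it, for Prrx1, Tbx18, Tcf21, Meox2, Foxc1 and Foxd1. The motifs were searched on both strands over the 250 bases before the start. Meox2 and Foxd1 are printed because they had the widest ranges of level among the matched genes, and Tbx18 because it was the 1 gene of the group at least 2-fold higher after transfection in Per2m/m cells. Capitals mark the CCAAT box, the GC box (GGGCGG) and the TATA box (TATAAA) on either strand.
Meox2 promoter, chr12:37108290-37108539 on the plus strand: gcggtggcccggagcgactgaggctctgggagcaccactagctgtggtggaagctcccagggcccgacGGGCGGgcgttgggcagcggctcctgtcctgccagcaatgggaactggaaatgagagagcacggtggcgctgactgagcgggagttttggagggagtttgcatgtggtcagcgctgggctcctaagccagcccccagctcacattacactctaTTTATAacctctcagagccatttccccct
Foxd1 promoter, chr13:98353995-98354244 on the plus strand: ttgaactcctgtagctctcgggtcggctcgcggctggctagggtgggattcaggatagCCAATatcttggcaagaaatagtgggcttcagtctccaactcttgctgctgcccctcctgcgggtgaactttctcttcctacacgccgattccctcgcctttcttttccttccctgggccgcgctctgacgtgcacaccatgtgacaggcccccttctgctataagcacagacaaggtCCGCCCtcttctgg
Tbx18 promoter, chr9:87731261-87731510 on the minus strand: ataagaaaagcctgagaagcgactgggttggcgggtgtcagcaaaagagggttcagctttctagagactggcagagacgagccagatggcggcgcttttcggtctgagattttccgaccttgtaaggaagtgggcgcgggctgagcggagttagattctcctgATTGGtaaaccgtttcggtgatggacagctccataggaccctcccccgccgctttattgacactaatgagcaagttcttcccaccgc
CACGTG was in none of the 6 promoters, against 6.02% of 32851 mouse promoters of the same length. CCAAT was in 33.8% of those promoters, GGGCGG in 32.7% and TATAAA in 12.4%. Meox2 and Foxd1 each held 12 CpG sites in this window, Tbx18 held 15 and Foxc1 held 29, against a median of 6, and 93.2% of promoters held fewer than Foxc1. Prrx1 held 4 and Tcf21 held 5. A match or its lack in these letters is a description of the sequence and says nothing of a factor's binding.

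A level below is the log2 of the processed signal minus the 75th percentile of its own array, so that 0 marks that percentile, and levels are compared between arrays of the same probe and never between probes. A spot not well above background has only a bound, and a fold against it is given as "at least". It is measured from the lowest signal called well above background on that array, or from the spot's own level where that is higher. Between 49.3% and 57.2% of spots were well above background on each array, and the log2 SD between repeated spots of a probe was 0.05 to 0.06. Precision was limited by the number of arrays, since no group was repeated. Across these 6 samples, any p-value is measured against how far the transfection responses differed between genotypes. A response particular to 1 genotype therefore enters a p-value as error. The transfected Per2m/m array stood apart, correlating with the others at r of 0.853 to 0.891 across probes, while the remaining arrays had median r values from 0.930 to 0.945. On it the Y-linked Ddx3y (-6.74) and Xist (-6.18) were not well above background, while on the mock Per2m/m array Ddx3y stood at -0.05 and Xist at -0.53. Both wild type arrays carried Xist and Ddx3y, and both Clk/Clk arrays carried Ddx3y with Xist not well above background. Hras, whose mouse probe need not read the vector, was 0.17 log2 units lower in transfected than mock wild type cells (-0.17), 0.64 higher in Clk/Clk and 1.33 lower in Per2m/m (-1.33), so the transfection labels were not checked by it. The Per2 probe was 2.39 log2 units higher in mock Per2m/m than in mock wild type cells. The labels do not say whether mock and transfected Per2m/m cells came from 1 culture, so in every Per2m/m response below the vector and a difference between cultures cannot be told apart. The joint coefficients are given with and without the Per2m/m pair.

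**Figure D1:**
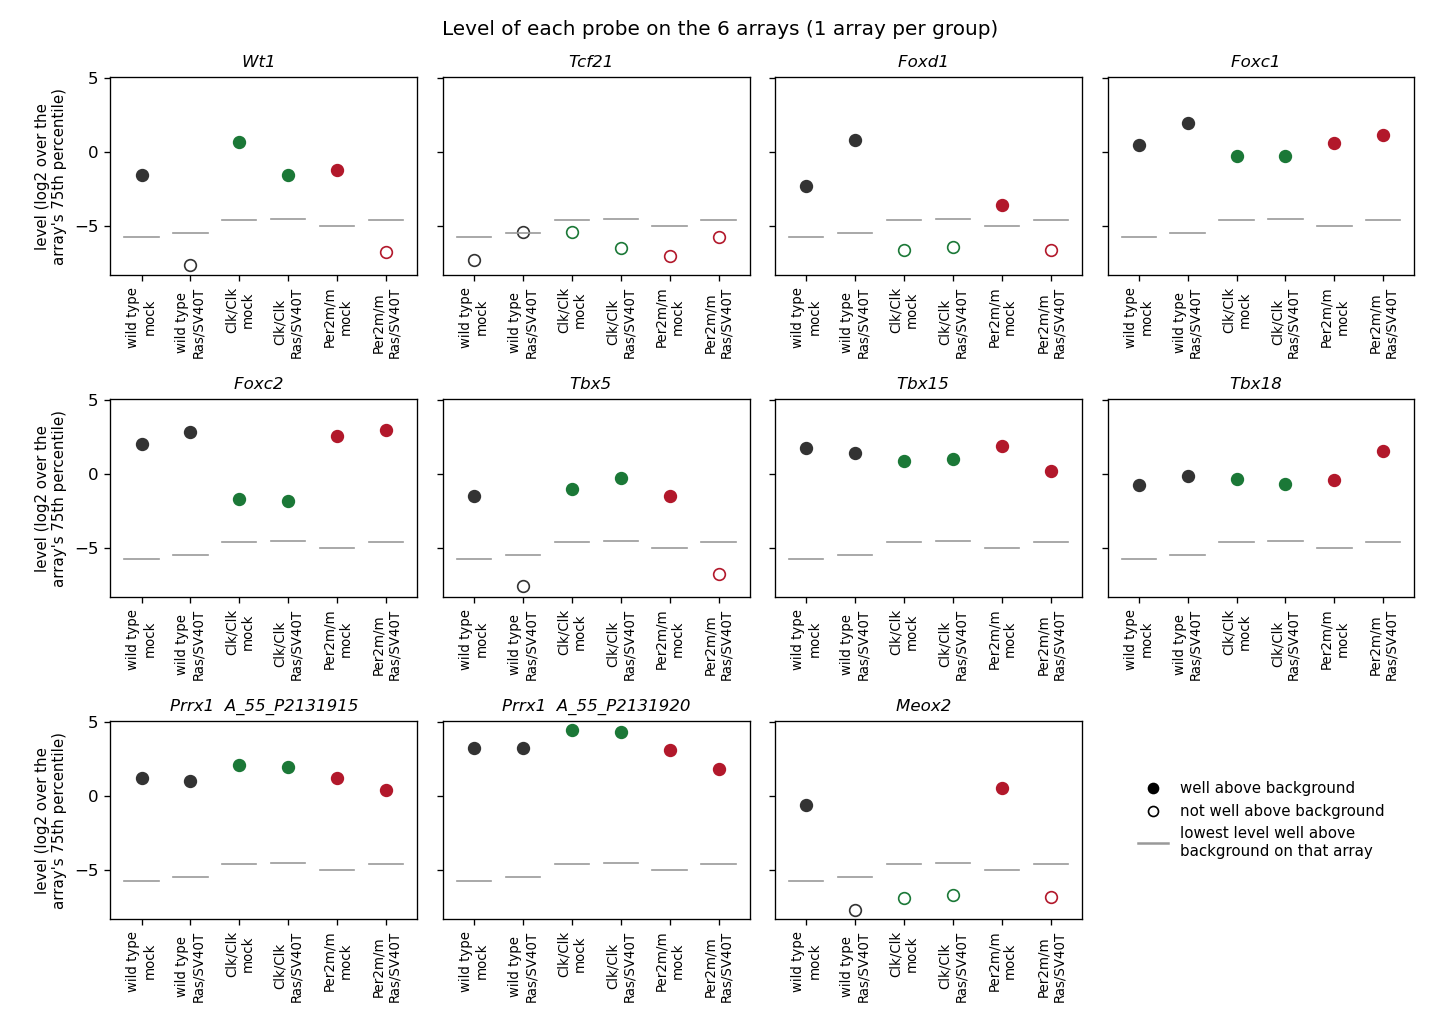
Level of each gene (y axis, log2 of the signal relative to the 75th percentile of the array) on the 6 arrays (x axis), 1 panel per gene, with hollow points for spots not well above background. Wt1 and Tbx5 have hollow points on the transfected wild type and Per2m/m arrays alone, while Meox2 is filled only on the mock wild type and mock Per2m/m arrays.

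Wt1 encodes a zinc finger regulator of mesothelium, kidney and gonad. From mock to transfected cells its levels read -1.54 then -7.61 (wild type), 0.70 then -1.55 (Clk/Clk) and -1.20 then -6.76 (Per2m/m). The transfected wild type and transfected Per2m/m spots were not well above background, and the 4 other arrays were. The processed signals behind these levels were 168 against 3.23 for wild type, 616 against 129 for Clk/Clk and 234 against 3.88 for Per2m/m. All 3 transfected arrays were therefore lower than their mock partner, at least 15.2-fold for wild type, 4.75-fold for Clk/Clk and at least 10.5-fold for Per2m/m. The order of the measured levels placed mock Clk/Clk highest, 4.73-fold above mock wild type. Transfected Clk/Clk cells, at -1.55, stood at the level of mock wild type cells and at least 15.1-fold above transfected wild type cells. Across the 3 genotypes the transfected minus mock coefficient was -4.62 ± 0.90 (SE, limma, 6 arrays), with an adjusted p of 0.690. Since 2 of the spots in it were not well above background, its size is no measured difference, and it was -1.97 and -1.93 under the 2 normexp background corrections. Both corrections add an offset of 50 to every signal, which by construction shrinks the log2 ratios of low signals. In a bulk sample, fewer cells that carry a transcript and less of it per cell cannot be told apart.

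The T-box genes Tbx5, Tbx15 and Tbx18 encode regulators of limb and heart, of skin and skeleton, and of epicardium and vessel mural cells. Tbx5 read -1.49 then -7.58 (wild type), -1.0 then -0.25 (Clk/Clk) and -1.51 then -6.73 (Per2m/m). It was dim on the same 2 arrays as Wt1, the transfected wild type and transfected Per2m/m arrays. It was at least 15.7-fold lower after transfection in wild type and in Per2m/m lower by at least 8.47-fold, but 1.67-fold higher in Clk/Clk, where Wt1 was lower. Transfected Clk/Clk cells were at least 37.1-fold above transfected wild type cells, while the mock levels lay between -1.51 and -1.0. The coefficient over all genotypes was -3.52 ± 1.57 (SE, limma, adjusted p = 0.690), which rests on 2 dim spots and was -0.98 and -1.07 under the normexp corrections.

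Tbx15 was well above background on every array, reading 1.78 then 1.44 (wild type), 0.86 then 1.03 (Clk/Clk) and 1.88 then 0.20 (Per2m/m). Its response, transfected minus mock on the log2 scale, was -0.34, 0.17 and -1.67, and the last of these is 3.19-fold lower. Tbx18 read -0.78 then -0.16 (wild type), -0.32 then -0.65 (Clk/Clk) and -0.41 then 1.56 (Per2m/m). Its responses were 0.62, -0.33 and 1.96, so that the largest response of each of these genes came from the array that stood apart, downward for Tbx15 and upward for Tbx18. In wild type and Clk/Clk cells no response of either gene was over 0.62 log2 units in size. Their limma coefficients were -0.62 ± 0.46 and 0.75 ± 0.54 (SE), each with an adjusted p of 0.690, and without the Per2m/m pair they were -0.09 and 0.14 (adjusted p = 0.990 and 0.984).

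The forkhead genes encode winged-helix factors, Foxd1 of kidney stroma and pericyte precursors, Foxc1 and Foxc2 of somite, bone and vessel mesenchyme. Foxd1 read -2.31 then 0.78 (wild type), -6.60 then -6.44 (Clk/Clk) and -3.55 then -6.59 (Per2m/m). It was not well above background on either Clk/Clk array nor on the transfected Per2m/m array. In wild type cells it was 8.54-fold higher after transfection, with processed signals of 98.9 and 1089.5, and in Per2m/m cells at least 2.06-fold lower. Mock Per2m/m cells were 2.36-fold below mock wild type cells and mock Clk/Clk cells at least 4.96-fold below. After transfection Clk/Clk was at least 39.5-fold and Per2m/m at least 41.4-fold below wild type. The coefficient over the 3 genotypes, 0.07 ± 1.30 (SE, limma, adjusted p = 0.985), averaged responses of opposite sign and was 1.63 without the Per2m/m pair. The Clk/Clk minus wild type coefficient (limma, adjusted p = 0.489) has no size of its own, since neither Clk/Clk spot was well above background.

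Foxc1 and Foxc2 were well above background on all 6 arrays. Foxc1 read 0.44 then 1.96 (wild type), -0.26 then -0.29 (Clk/Clk) and 0.63 then 1.16 (Per2m/m), with responses of 1.52 (2.87-fold), -0.03 and 0.53. Foxc2 read 1.99 then 2.85 (wild type), -1.67 then -1.80 (Clk/Clk) and 2.55 then 2.96 (Per2m/m), with responses of 0.85, -0.13 and 0.41. For both genes the Clk/Clk arrays were the 2 lowest and showed the smallest response in size. Foxc2 was 12.7-fold lower in mock Clk/Clk than in mock wild type cells and 25-fold lower after transfection, while Per2m/m differed from wild type by 0.56 and 0.12 log2 units. Foxc1 was 0.70 log2 units lower in mock Clk/Clk cells (a difference of -0.70) and 4.78-fold lower in transfected ones. The Foxc2 difference between Clk/Clk and wild type, -4.15 ± 0.39 (SE, limma), had an adjusted p of 0.261. The transfected minus mock coefficients of Foxc1 and Foxc2 were 0.67 and 0.38 (limma, adjusted p = 0.690 and 0.695), and 0.74 and 0.36 without the Per2m/m pair.

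Prrx1 and Meox2 encode homeodomain proteins, the first of limb and craniofacial mesenchyme and fibroblasts, the second of somites, limb muscle precursors and vessels. Prrx1 probe A_55_P2131920 read 3.21 then 3.23 (wild type), 4.43 then 4.29 (Clk/Clk) and 3.10 then 1.80 (Per2m/m). Probe A_55_P2131915, on another transcript, gave 1.19 and 1.03, 2.11 and 1.98, and 1.20 and 0.43. The probes shared their pattern, with both Clk/Clk arrays highest and the transfected Per2m/m array lowest. Responses on the first probe were 0.02, -0.14 and -1.30, and on the second -0.15, -0.13 and -0.77, so the Per2m/m difference was 2.46-fold on the first. The wild type response of the first probe turned sign between scalings, from -0.14 to 0.33. Mock Clk/Clk cells were 2.34-fold and transfected Clk/Clk cells 2.09-fold above their wild type counterparts on the first probe. The second probe gave 0.93 and 0.95 log2 units for the same differences. The transfected minus mock coefficient of the first probe was -0.47 (limma, adjusted p = 0.693) and -0.06 without the Per2m/m pair.

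Meox2 read -0.58 then -7.69 (wild type), -6.85 then -6.68 (Clk/Clk) and 0.56 then -6.8 (Per2m/m). It was well above background on the mock wild type and mock Per2m/m arrays and on no other. It was at least 29.7-fold lower after transfection in wild type and in Per2m/m lower by at least 35.4-fold, whereas in Clk/Clk cells no response could be measured since neither spot was above background. Mock Clk/Clk cells were at least 16.5-fold below mock wild type cells, and mock Per2m/m cells 2.19-fold above them. Its coefficient was -4.77 ± 1.80 (SE, limma, adjusted p = 0.690), which rests on 4 dim spots and was -2.03 and -2.09 under the normexp corrections.

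Tcf21, a basic helix-loop-helix factor of epicardium, lung and kidney mesenchyme, was not well above background on any array, with levels from -7.31 to -5.38, and no fold is given for it. It is the 1 gene of the 10 that was not kept for the fits, for which a gene had to be well above background on at least 1 array.

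**Figure D2:**
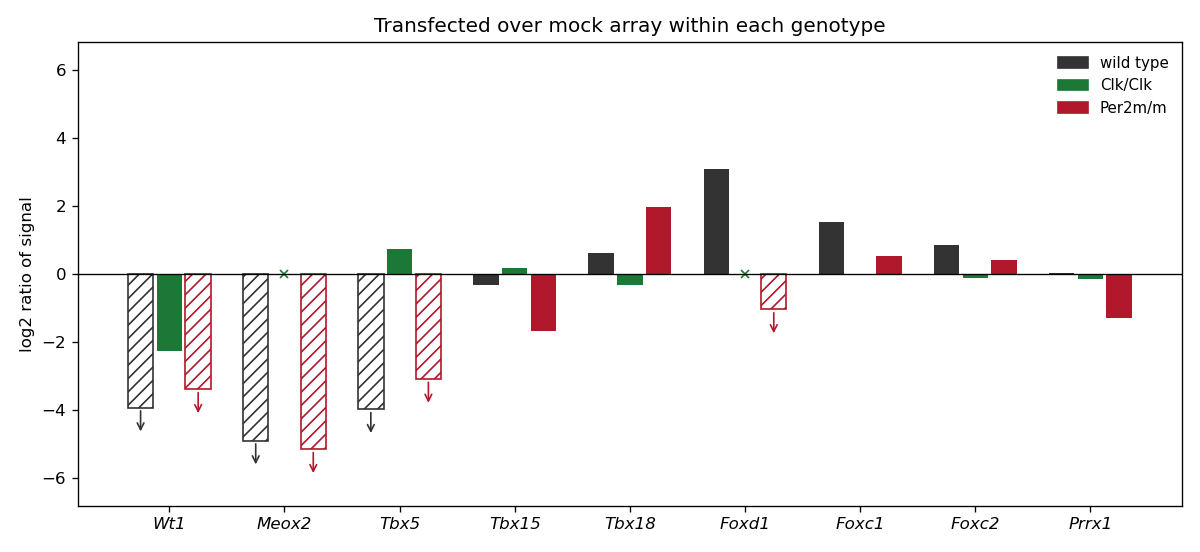
Log2 ratio of transfected over mock signal (y axis) of the 9 genes kept (x axis), with 1 bar for each genotype, hatched with an arrow where the value is a lower bound on the size and a cross where neither spot was well above background. Wt1 lies below 0 in all 3 genotypes, Meox2 and Tbx5 in wild type and Per2m/m, and Foxd1 has a tall bar up in wild type (8.54-fold) and a bound down in Per2m/m.

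A response of at least 2-fold was counted over the 9 genes kept, where the brighter array was well above background. In wild type cells Foxd1 and Foxc1 were higher, 2 of 9 against 7.45% of all genes kept, and Wt1, Tbx5 and Meox2 lower, 3 of 9 against 11.9%. In Clk/Clk cells Wt1 alone was lower, 1 of 9 against 4.13% of all genes, and 0 of 9 were higher against 3.72%. In Per2m/m cells 6 of 9 were lower (Wt1, Foxd1, Tbx5, Tbx15, Prrx1 and Meox2), against 20.8%, and 1 of 9 was higher (Tbx18), against 18.6%. The median response of the 9 genes was 0.02 (wild type), -0.03 (Clk/Clk) and -1.67 (Per2m/m) (-1.30 with dim spots at their bound), beside 0.00, 0.02 and 0.11 over all genes. With dim spots at their bound the 9 genes gave the same counts, and the shares of all genes higher and lower became 6.92% and 10.5% (wild type), 2.88% and 3.28% (Clk/Clk) and 17.8% and 18% (Per2m/m). The counts for gene lists below use the bounds. These counts describe 1 pair of arrays each and have no replicate check. In the joint fit 0 of 16959 genes passed an adjusted p of 0.05 for transfection (limma), with 801 genes, 4.72%, at an unadjusted p under 0.05, and 1 of the 9 (Wt1) was among these. The median coefficient of the 9 was -0.47, with 4 of 9 above 0, against 0.03 over all genes. Over the 5 of them above background on all 6 arrays it was 0.38, against 0.09 over all such genes. Without the Per2m/m pair the median of the 9 was -0.06 against -0.01. Without that pair the coefficients of Wt1, Tbx5 and Meox2 were -4.16, -2.67 and -3.47 (limma, adjusted p = 0.933 each), and without the Clk/Clk pair they were -5.81, -5.65 and -7.24 (adjusted p = 0.460 each), all resting in part on dim spots.

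The genes well above background numbered 9 of 10 on the mock wild type array, 6 on the transfected one, 7 on each Clk/Clk array, 9 on the mock Per2m/m array and 5 on the transfected one. Over all genes kept these shares were 90.7%, 88.7%, 87%, 85.8%, 88.5% and 80.4%. Wt1 and Tbx5 shared the pattern of being above background on all arrays but the transfected wild type and transfected Per2m/m ones, which 139 genes (0.82%) had. The pattern of Meox2 was that of 179 genes (1.06%) and the pattern of Foxd1 that of 187 genes (1.1%). The 5 others kept were above background on all 6 arrays, as were 73.6% of genes.

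**Figure D3:**
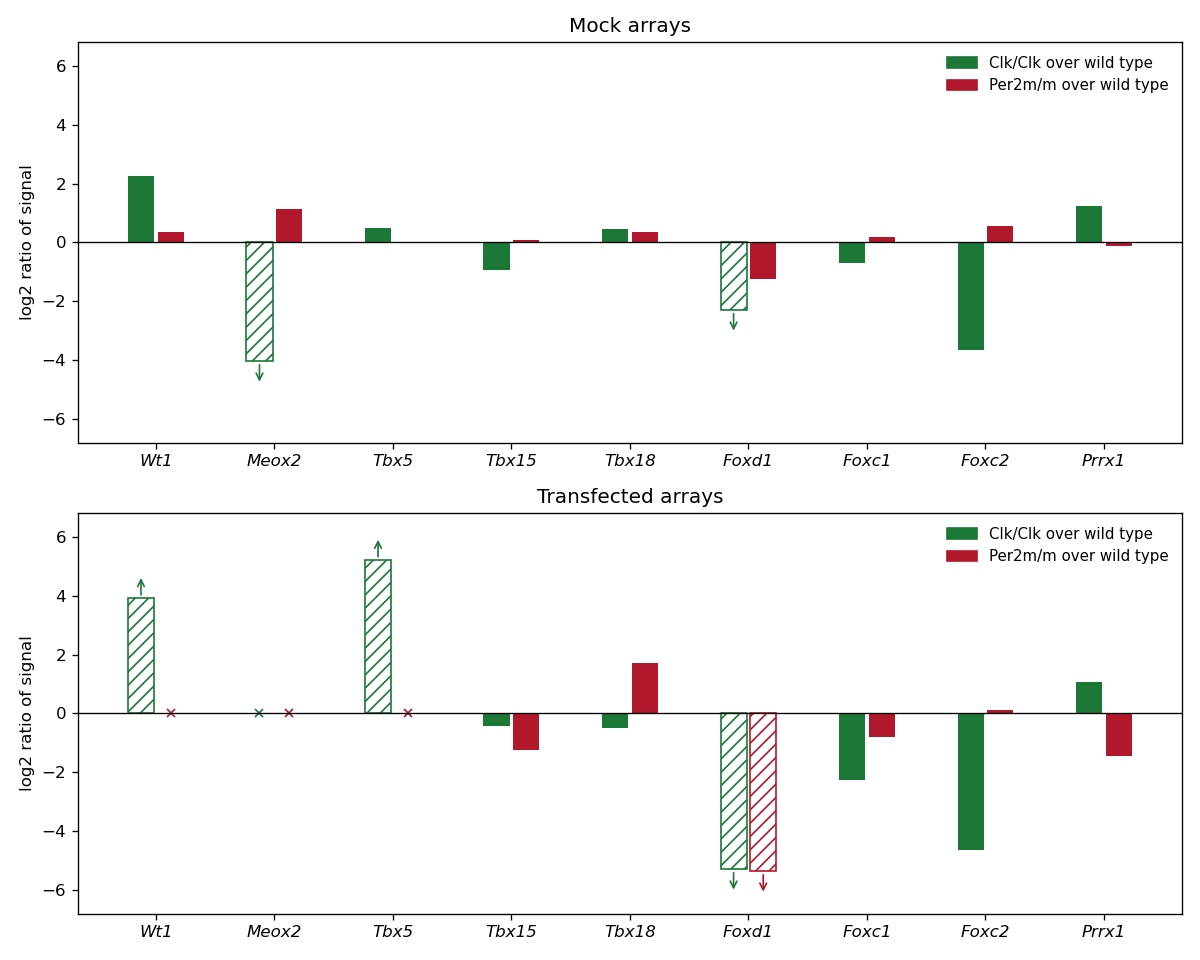
Log2 ratio of mutant over wild type signal (y axis) of the 9 genes kept (x axis), mock arrays above and transfected arrays below, with hatched bars and arrows where the value is a lower bound on the size and crosses where neither spot was well above background. Foxc2 and Foxd1 lie far below 0 in Clk/Clk cells under both transfections, while Prrx1 and Wt1 lie above 0.

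Genotype was then compared under each transfection. Among mock cells, Clk/Clk was at least 2-fold above wild type for Wt1 and Prrx1, 2 of 9 against 10.4% of all genes, and below it for Foxd1, Foxc2 and Meox2, 3 of 9 against 10.7%. With arrays scaled to their median, which moved all genes by -0.39 log2 units in this comparison, 1 of 9 was higher and 5 lower. Among transfected cells, Clk/Clk was above wild type for Wt1, Tbx5 and Prrx1, 3 of 9 against 13.8%, and below it for Foxd1, Foxc1 and Foxc2, 3 of 9 against 11.1%. There the median scaling moved all genes by -0.76 and gave 5 of 9 lower. Mock Per2m/m cells differed from mock wild type by at least 2-fold in Meox2, higher (1 of 9 against 4.38%), and Foxd1, lower (1 of 9 against 4.47%). Transfected Per2m/m cells were above transfected wild type for Tbx18, 1 of 9 against 14.6%, and below it for Foxd1, Tbx15 and Prrx1, 3 of 9 against 16.2%. The last 2 of these comparisons differ in that the second uses the array that stood apart.

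For the Clk/Clk minus wild type coefficient, 0 of 16959 genes passed an adjusted p of 0.05 (limma) and 1586, 9.35%, had an unadjusted p under 0.05, with 4 of the 9 among them (Wt1, Foxd1, Foxc1 and Foxc2), of which Wt1 and Foxd1 rest in part on dim spots. Foxc1 gave -1.48 ± 0.50 (SE, limma, adjusted p = 0.520). For Per2m/m minus wild type, 0 passed and 380 genes, 2.24%, had an unadjusted p under 0.05 (limma), with 0 of the 9 among them and adjusted p-values of 0.931 to 0.974. Leaving out the mock Per2m/m array raised that count of adjusted calls from 0 to 554 genes, with the transfected Per2m/m array then the sole array of its genotype. The responses in Clk/Clk and wild type were also set side by side, and for Tbx5 they had opposite signs, 0.74 and at least 15.7-fold lower. Signs were also opposite for Foxc2 (-0.13 and 0.85), Tbx15 (0.17 and -0.34) and Tbx18 (-0.33 and 0.62). For Foxc1 (-0.03 and 1.52) and Prrx1 probe A_55_P2131920 (-0.14 and 0.02) the smaller value was under 0.09 in size. That is the spread of a log2 ratio of 2 arrays from repeated spots, so no direction is read from it. On the other Prrx1 probe both responses were below 0. The differences between responses have no test, since each rests on 4 unrepeated arrays.

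The closest relatives of these genes gave other patterns. Prrx2, a limb homeobox gene like Prrx1, read 5.50 then 5.97 (wild type), 3.27 then 4.68 (Clk/Clk) and 5.06 then 3.64 (Per2m/m), so its Clk/Clk arrays were below wild type where those of Prrx1 were above. Meox1, the somite homeobox relative of Meox2, was well above background on both Clk/Clk arrays (-0.62 and -0.51) and the mock Per2m/m array (-0.72), and not on either wild type array. Mock Clk/Clk cells thus carried a signal for Meox1 without Meox2 and mock wild type cells the reverse.

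**Figure D4:**
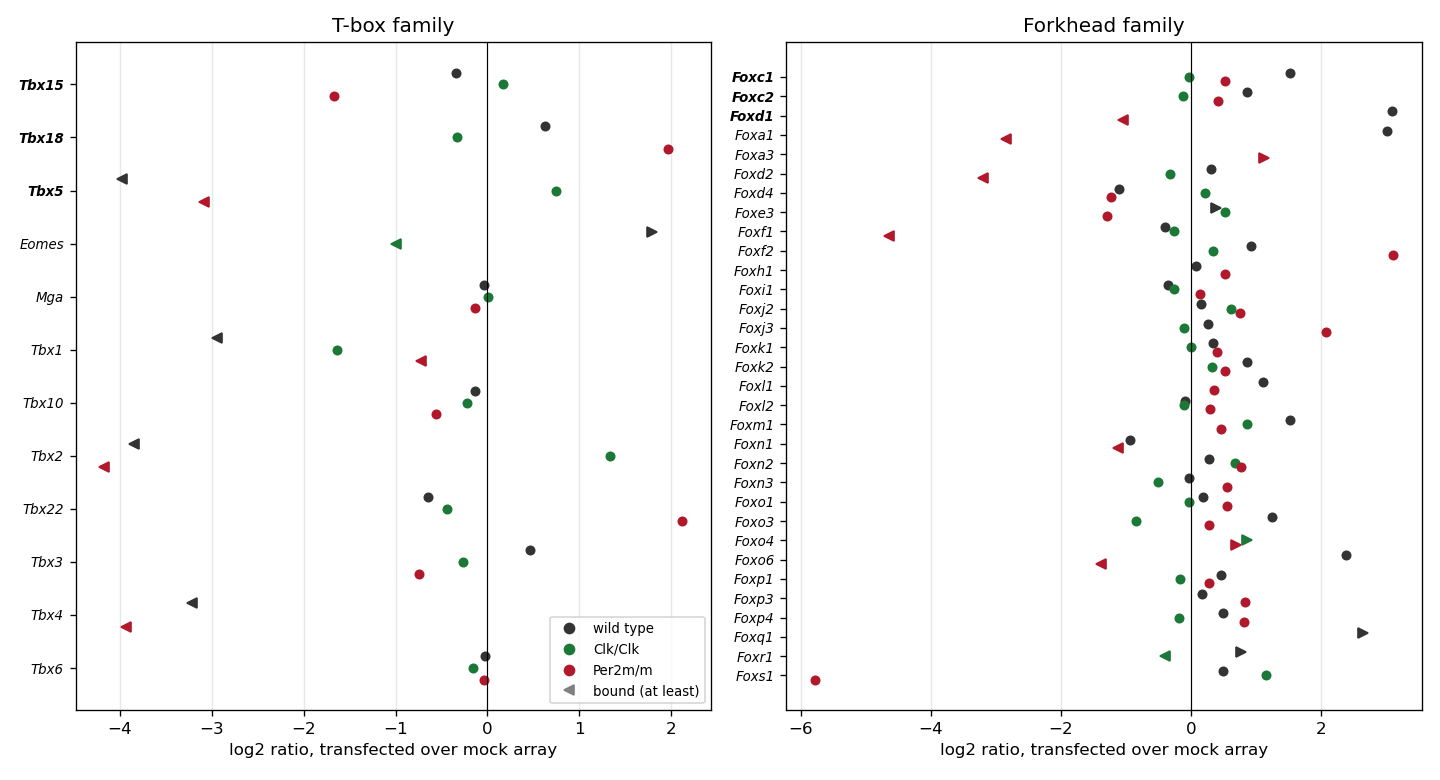
Log2 ratio of transfected over mock signal (x axis) of T-box and forkhead genes (y axis), 1 point per genotype, bold names for the genes described, with arrowheads where the value is a lower bound on the size. Genotypes in which neither spot was well above background have no marker, and Tbx2 and Tbx4 lie far to the left for wild type and Per2m/m as Tbx5 does.

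Of the 14 other T-box genes, 9 were kept, with a median coefficient of -0.31 and 1 of 9 above 0, and 0 passed the adjusted test (limma). At least 2-fold responses numbered 1 higher and 3 lower (wild type), 1 and 1 (Clk/Clk) and 1 and 2 (Per2m/m). Tbx2, a repressor of limb and heart that blocks senescence genes, was at least 14.4-fold lower in wild type and in Per2m/m lower by at least 18.0-fold but 2.52-fold higher in Clk/Clk, the directions of Tbx5 in each genotype. Tbx4, the hindlimb and lung relative of Tbx5, was at least 9.31-fold lower in wild type and in Per2m/m lower by at least 15.2-fold, and like Meox2 was not above background on either Clk/Clk array. Tbx3, next to Tbx5 on chromosome 5, had responses of 0.46, -0.26 and -0.74, so the neighbours did not share the Tbx5 values. Tbx1, of pharyngeal mesenchyme, was at least 7.71-fold lower in wild type and 3.12-fold lower in Clk/Clk.

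Of the 38 other forkhead genes, 30 were kept, with a median coefficient of 0.23, 20 of 30 above 0 and 0 passing the adjusted test (limma). Responses of at least 2-fold numbered 7 higher and 1 lower (wild type), 1 and 0 (Clk/Clk) and 4 and 8 (Per2m/m). Foxf1, a regulator of visceral mesenchyme that lies beside Foxc2, stood between 2.31 and 2.72 on the wild type and Clk/Clk arrays, at 0.05 in mock Per2m/m cells and at -6.84, not well above background, in transfected ones. Foxf2, beside Foxc1, had responses of 0.92, 0.34 and 3.10. Foxf1 and Foxf2 did not show the low Clk/Clk levels of Foxc2. Foxl1, another neighbour of Foxc2, was not well above background on either Clk/Clk array (-5.15 and -5.93) and stood at -3.04 and -1.93 in wild type and at -3.01 and -2.66 in Per2m/m. Foxq1, near Foxc1, was well above background on the transfected wild type array alone, at least 6.23-fold above the mock one.

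The 51 other mesenchymal and positional factors had 50 kept, a median coefficient of -0.16 and 21 of 50 above 0, with 0 passing the adjusted test (limma). At least 2-fold responses numbered 4 higher and 6 lower (wild type), 2 and 3 (Clk/Clk) and 11 and 20 (Per2m/m). Pitx1, the hindlimb homeobox gene, was at least 94.9-fold lower in wild type and in Per2m/m lower by at least 140-fold with a Clk/Clk response of 0.52, and like Wt1 and Tbx5 it was dim on 2 arrays. Six2, of kidney and limb mesenchyme, was at least 51.4-fold and 28.0-fold lower in wild type and Per2m/m and not above background in Clk/Clk cells, as was Meox2. In the other direction, Gli1, a target and effector of Hedgehog signalling, was at least 17.6-fold higher in wild type and 7.98-fold higher in Per2m/m, with a response of -0.17 in Clk/Clk.

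WT1 is reported to bind and regulate a set of genes, of which 12 were listed and 12 kept. Their median coefficient was -0.85 with 5 of 12 above 0 and 0 passing the adjusted test (limma), and at least 2-fold responses numbered 2 higher and 5 lower (wild type), 2 and 0 (Clk/Clk) and 3 and 6 (Per2m/m). Aldh1a2, which makes retinoic acid in mesothelium, and Itga4, an integrin chain of the epicardium, were the only listed targets with the above-background pattern of Wt1. Sox9 had the highest coefficient of the list (2.44), with responses of 2.51 (wild type), 0.48 (Clk/Clk) and 4.33 (Per2m/m). Those of Bcl2 were 0.36, 0.74 and 1.91, and those of Nes were 0.47, -0.06 and -4.40. Itga4 was at least 4.97-fold lower in wild type, at least 5.38-fold lower in Per2m/m and 0.62 log2 units higher in Clk/Clk cells, where Wt1 was lower. Areg, a growth factor, had a response of 5.97 in wild type against at least 2.06-fold lower in Per2m/m. Wt1os, the antisense RNA of the Wt1 locus, was above background on the mock wild type array alone, at -3.27. The 19 listed cofactors of these factors had a median coefficient of 0.12 with 11 of 19 above 0 and 0 passing (limma), and Myocd, a smooth muscle coactivator, was at least 8.41-fold lower in wild type and in Per2m/m lower by at least 7.27-fold.

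Likeness was read as root mean square difference of centred levels over the 6 arrays. Only kept genes well above background on at least 3 arrays were compared. Those most like Wt1 were Clca3a2 (0.51 log2 units), Clca3a1 (0.53) and Il6 (0.55). Those most like Tbx5 were Cyria (0.45), AI606473 (0.49) and Fap (0.53), the last a fibroblast surface protease. Those most like Foxd1 were Prdm6 (0.47), Foxa1 (0.93) and Sobp (0.96). For Meox2 the nearest genes compared were Sprr2k (1.18), Gzme (1.19) and Pappa2 (1.28). Meox2 was itself well above background on 2 arrays, so the genes that share its pattern were left out by this limit. Its larger differences therefore do not show that closer genes were lacking. Where spots lie below background the likeness partly compares background values.

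Markers of other cell types were read on the same arrays. Of 17 mesothelial markers 13 were kept, with a median coefficient of -1.54, 3 of 13 above 0 and 0 passing (limma), and 9, 9, 10, 8, 9 and 5 were well above background on the arrays (wild type, Clk/Clk, Per2m/m, mock before transfected). The markers Upk3b, Upk1b, Gpm6a and Calb2 were not among the genes kept. At least 2-fold responses numbered 2 higher and 5 lower (wild type), 1 and 3 (Clk/Clk) and 3 and 7 (Per2m/m). The others differed in direction: Msln, the mesothelial surface protein mesothelin, read -2.02 then 1.37 (wild type), 2.55 then 1.27 (Clk/Clk) and 0.30 then 5.06 (Per2m/m), the opposite direction to Wt1 in wild type and Per2m/m. Krt19, a keratin of mesothelium and epithelium, responded by -2.36 (wild type) and -1.25 (Clk/Clk) and was at least 88.1-fold lower in Per2m/m. Bnc1, with the highest coefficient of the list (3.01), was 8.61-fold higher in wild type and at least 26.5-fold higher in Per2m/m. Krt7 and Nkain4 were 2.54-fold and 10.3-fold lower in wild type, and at least 22.9-fold and 8.9-fold lower in Per2m/m.

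The labelled fibroblast identity was read with 15 fibroblast and mural markers, of which 15, 11, 13, 13, 14 and 12 were well above background on the arrays in the same order. At least 2-fold responses numbered 1 higher and 8 lower (wild type), 2 and 1 (Clk/Clk) and 0 and 8 (Per2m/m), and the median coefficient was -0.84 with 0 passing (limma). Thy1, a fibroblast surface protein, had responses of -3.34, -0.17 and -7.77, and Dcn, a matrix proteoglycan, of -5.86, -0.34 and -2.92. Pdgfra, a receptor of mesenchymal cells, had 2.07, -0.03 and -0.04.

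Macrophage markers were lower after transfection in wild type and Per2m/m cells, as Wt1, Tbx5 and Meox2 were, and not in Clk/Clk cells, where Wt1 was lower and Tbx5 higher. At least 2-fold responses numbered 1 higher and 12 lower (wild type), 0 and 1 (Clk/Clk) and 0 and 13 (Per2m/m). In mock Clk/Clk cells 8 of 17 were at least 2-fold below mock wild type, against 8.83% of all genes, and 1 above, against 10.4%. Of 17, the number well above background went from 16 to 9 (wild type), 10 to 9 (Clk/Clk) and 17 to 9 (Per2m/m), with a median coefficient of -1.41, 1 of 17 above 0 and 0 passing (limma). Itgam, an integrin chain of myeloid cells, had the brightest probe, with 61.8% to 87.9% of their summed signal. The log2 of the sum went from 5.60 to 4.58 (wild type), 5.96 to 5.84 (Clk/Clk) and 5.90 to 4.21 (Per2m/m). Without Itgam it went from 3.49 to 2.21, 2.91 to 2.84 and 4.42 to 2.82. Such a sum adds different probes, so it is read between arrays only, and the share of 1 probe in it is no share of transcripts. Tyrobp, Ctss and C1qa, genes that define macrophages and microglia, had the above-background pattern of Meox2, and Tyrobp was at least 14.7-fold lower in wild type and in Per2m/m lower by at least 27.9-fold. Epithelial markers numbered 7 or 8 of 13 above background on each array, with Epcam and Ocln not among the genes kept. Of the 11 kept, at least 2-fold responses numbered 0 higher and 1 lower (wild type), 0 and 1 (Clk/Clk) and 4 and 2 (Per2m/m). Their median Per2m/m response was 0.06. On the transfected Per2m/m array Krt14 was 104-fold above the mock array, Krt8 at least 5.23-fold, and Cdh1 and Grhl2 at least 3.23-fold and 3.24-fold. There Krt18 was at least 16-fold lower and Krt19 at least 88.1-fold lower. Endothelial markers numbered 3 to 6 of 10 above background, with Cdh5, Tie1 and Erg not among the genes kept. The part of these cells in the levels of the 10 genes was not tested.

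**Figure D5:**
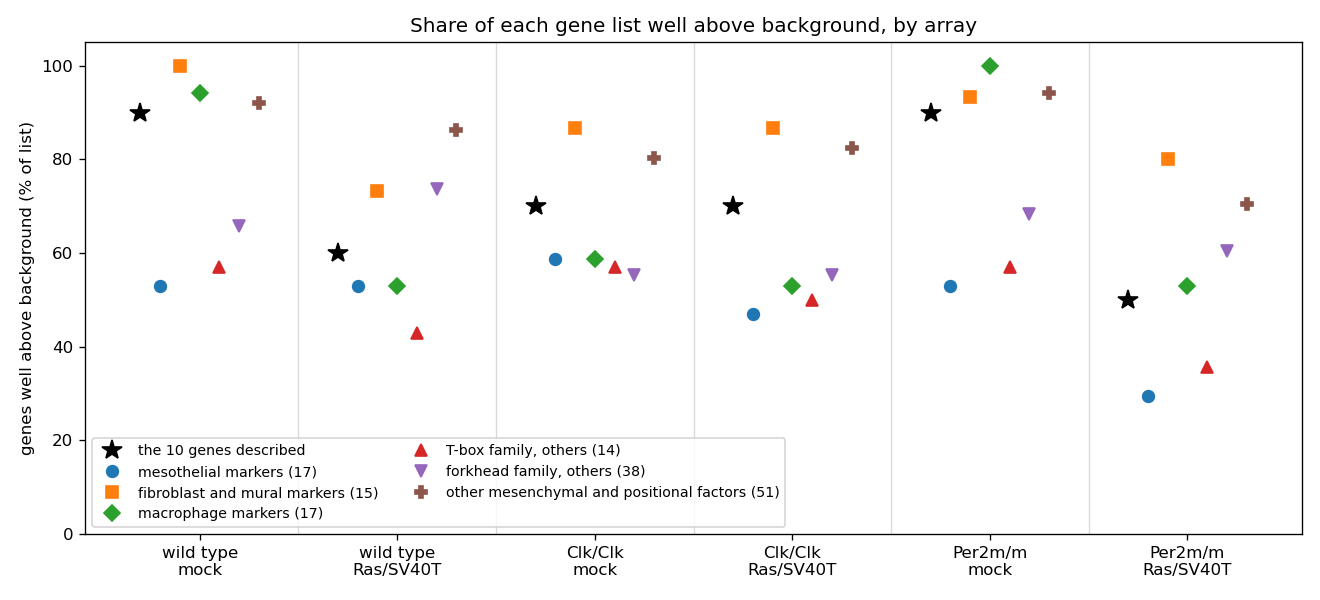
Share of the genes of each list that were well above background (y axis, percent of the list) on each array (x axis), with a star for the 10 genes described and the list sizes in the legend. The stars stand at 9, 6, 7, 7, 9 and 5 of 10 genes, and the macrophage markers at 16, 9, 10, 9, 17 and 9 of 17.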

How the data were processed

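Per the file headers, the authors extracted the deposited intensity of each spot, a processed Cy3 signal on a linear scale, with Agilent Feature Extraction 10.7.1.1; the submitters' processing notes name version 9.5.1.1. The authors' deposited table, an intensity per probe normalized across arrays, served as an alternative. Each array gave 59305 non-control spots, of which 85 to 125 were left out as outliers and 0 were saturated. Spots were read in Python 3.11.15. The log2 of the processed signal was averaged over the spots of a probe, and log2 of the array's 75th percentile was subtracted (R 4.3.3). Probes were named from the deposited file, updated through RefSeq accession (27235), symbol (3581) or synonym (565), with 433 keeping the file's name. A gene was represented by its brightest kept probe, and 16959 genes well above background on at least 1 array were fitted with limma 3.58.1 (R 4.3.3, lmFit and eBayes) with transfection and genotype as terms and 2 residual degrees of freedom, p-values adjusted by Benjamini-Hochberg over all of them. The fit used the measured values of dim spots; the folds used their bounds, and counting list genes at their bounds was added after the data were seen. The code was tested on simulated data.

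The 10 genes, the gene lists, the 2-fold rule and the naming rule were chosen with earlier results of these data known, and the promoter motifs likewise. Named beside the 10 were the 3 highest and 3 lowest genes of each list by coefficient, the closest relatives, and the 3 genes most like each of the 4 widest-ranging; others named share a pattern and were picked after their values were seen. Alternatives were median scaling, normexp background correction with an offset of 50, the authors' table, other filters, the mean of a gene's probes and leaving out arrays or pairs. Proteins and coordinates of exons were not used here. The result of 1 gene that the naming rule selects is not reported here.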

Additional observations from a re-analysis of the deposited data

Results flagged for a closer look

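Foxd1 moved in opposite directions in wild type and Per2m/m cells after transfection. Its response was 3.09 log2 units in wild type and -3.04 in Per2m/m, a difference of -6.13, and the second response rests on a spot not well above background, where the fold is at least 2.06 lower. Between scalings and background settings the Per2m/m response ranged from -3.04 to -0.40 log2 units, and the wild type response from 2.36 to 3.41. The difference was not tested, since each response comes from 1 pair of arrays.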

How the results depend on the processing

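Under the alternatives, 269 recomputed values kept their direction and their side of the threshold or stayed within 1.5 times of a count, 14 moved further, 2 turned direction and 1 newly passed. The Foxd1 coefficient for transfection was -1.44 without either wild type array, and ranged from there to 1.63 with 1 array left out. When 1 array of a genotype was left out its partner carried no information on transfection, so both give the same value. With 1 array left out, the genes called between Per2m/m and wild type (limma) ranged from 0 to 554. Keeping only genes above background on all 6 arrays left 5 of the 9, by the filter's own construction. The median transfection coefficient of these 5 was 0.38, where that of the 9 was -0.47, so its sign turned. Of the 5, 1 was at least 2-fold higher and 0 lower after transfection in wild type, 0 were lower in Clk/Clk and 2 lower in Per2m/m. Between mock cells 1 was higher and 1 lower in Clk/Clk, and 0 were higher and 0 lower in Per2m/m, and 1 was higher in transfected Clk/Clk. Median scaling gave 1 higher and 5 lower in mock Clk/Clk and 5 lower in transfected Clk/Clk, with all genes moved by -0.39 and -0.76 log2 units. With either normexp setting 0 were lower in mock Per2m/m, and the cause was not tested. Either setting gave 5 of 9 lower after transfection in Per2m/m, where the main setting gave 6. Median scaling also moved all genes by 0.31 in the wild type response and 0.39 in the Per2m/m response. Leaving out the Clk/Clk pair, an alternative chosen after seeing the data, gave a median coefficient of -0.64 for the 9 genes, and leaving out the wild type arrays -0.75. Genotype was a term of every fit, so each transfected array was compared with the mock array of its genotype. Normexp brought the coefficients of Wt1, Tbx5 and Meox2, which rest in part on dim spots, to -1.97, -0.98 and -2.03 with quantile scaling. Its offset of 50 shrinks the log2 ratios of low signals by construction. With no repeat of any group, the depth of the conclusions is set by 6 arrays, and levels below background are bounds.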
